A study of Mus musculus with 8 samples.

Results

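The enzymes that remove superoxide and peroxides were examined as 10 genes listed by symbol: the superoxide dismutases Sod1, Sod2 and Sod3, catalase (Cat), the glutathione peroxidases Gpx1, Gpx3 and Gpx4, and the peroxiredoxins Prdx2, Prdx3 and Prdx5. All 10 were found among the 30406 genes counted in all 8 libraries. The libraries were single-cell RNA-seq of islets of adult male C57BL/6 mice (C57BL6/J in the study's methods) in 2 replicates. Each replicate was a pool of islets from several mice that was divided over 4 conditions. In fits without a block a p-value thus measures the spread between these 2 pools, taken over the conditions. In fits with the library or replicate as a block it measures the spread left after the levels of each library or replicate are removed. Only these 2 pools were sampled in either case. The islets were left untreated, or treated for 18 h with IL-1β and IFN-γ (cytokines), with the same cytokines and NG-monomethyl-L-arginine (NMMA, an inhibitor of nitric oxide synthases), or with NMMA alone. No animal carried a transgene or deletion by the labels, and the islets were cultured outside the animal. The libraries held 26549922 to 50731370 unique molecular identifiers (UMIs), the counted RNA molecules. Of 17426 barcodes 10876 passed the filters, and 8068 of them fell into 6 cell classes: 6277 β-cells, 634 α-cells, 333 δ-cells, 324 macrophages, 284 endothelial cells and 216 mesenchymal cells. No library shared more than 5 barcodes with another.

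The class names matched their leading markers over all libraries together, but δ-cells also held much PP-cell RNA. Ins2, the most abundant β-cell marker, led the β-cell sums. Gcg, the glucagon gene, led the α-cell sums and Sst, the somatostatin gene, led the δ-cell sums. C1qb led the marker list of macrophages, Flt1 that of endothelial cells, and Col1a1 and Col3a1 that of mesenchymal cells, and no list had a marker at 0 in its own class. In β-, α-, δ-, endothelial cells and macrophages the cells with and without cytokines lay largely in different clusters. Of the clusters of untreated β-cells, the larger were led by Ppp1r1a in replicate 1 and by Glp1r in replicate 2, and those of cytokine-treated β-cells were led by Il4i1, Cfb and Lcn2. The 2 cytokine treatments also separated in part. In replicate 1, the cluster led by Il4i1 held 1030 of 1137 β-cells given cytokines and 105 of 645 given cytokines and NMMA, and the cluster led by Lcn2 held 36 and 477. In replicate 2 the cluster led by Cfb held most of both (399 of 578 and 353 of 452). Of the α-cells given cytokines alone, 45 of 45 and 53 of 69 lay in a cluster led by the heat shock genes Hspb1, Hspa1a and Hspa1b, whereas with NMMA added 87 of 98 and 84 of 87 lay in one led by Trf, Steap4 and Cxcl1. The α- and δ-cell clusters were clustered again, and barcodes of the new clusters that scored highest for β-cell markers were left out. These numbered 138 and 61 untreated and 31 and 125 with NMMA alone (replicates 1 and 2). With cytokines they numbered 0 and 0, and with cytokines and NMMA 1 and 2. RNA of other cells was counted in every class. Insulin transcripts (Ins1 and Ins2) made up 0.76% and 0.657% of the UMIs of untreated α-cells and 4.5% and 4.18% with cytokines, and 1.68% and 3.98% of the UMIs of untreated macrophages against 0.19% and 0.618% with cytokines.

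Superoxide is turned into hydrogen peroxide by the superoxide dismutases, of which SOD1 is cytosolic, SOD2 mitochondrial and SOD3 secreted. Catalase removes hydrogen peroxide in peroxisomes, the glutathione peroxidases use glutathione, and the peroxiredoxins are recharged by thioredoxin. Pancreatic β-cells are known for low catalase and glutathione peroxidase activity, and Sod2 is a known target of NF-κB. Superoxide also reacts with nitric oxide, which β-cells make from inducible nitric oxide synthase (iNOS, gene Nos2) when exposed to IL-1β and IFN-γ.

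Sod2 showed the widest change of the 10 genes, so the sequence before its start is given first. Sod2 lies on chromosome 17 at 13006846 to 13040063 on the plus strand (mouse GRCm38). The stretch below, from the RefSeq promoter table (GRCm38.p6), is chr17:13007589-13007816 on the plus strand, 228 bases that end before the RefSeq start at 13007839. The annotated gene begins farther upstream with an exon of 1 transcript (13006846 to 13006961), so the stretch lies in the intron between that exon and the next, which starts at 13007817. Capitals mark a match to the GAS motif, TTCNNNGAA, from base -185 to -177, and a match to the NF-κB consensus from base -83 to -74.
Sod2 upstream: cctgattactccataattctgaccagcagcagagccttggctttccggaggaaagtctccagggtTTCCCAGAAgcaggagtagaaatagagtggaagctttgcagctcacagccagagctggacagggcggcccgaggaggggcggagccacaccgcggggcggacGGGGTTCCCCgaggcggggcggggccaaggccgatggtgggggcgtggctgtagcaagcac
Both strands of the 250 bases before each start were searched in 32851 windows. The GAS letters were found in 7.02% of all windows, the NF-κB consensus in 3.9%, the ISRE core in 2.98% and the antioxidant response element core TGACNNNGC in 10.2%. The table held 12 windows for 9 of the 10 genes. Of these genes Sod2 alone matched the GAS letters and the NF-κB consensus, Sod1 alone matched the antioxidant response element core, and none matched the ISRE core. A match describes letters and was not tested as a site.

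Levels in untreated islets were compared first. Values are CPM, UMIs per 1000000, after scaling over all 48 sums of a class in a library (6 classes in 8 libraries), as mean ± SD of 2 replicates. The largest gaps between β-cells and other classes were in Gpx3, Cat, Prdx5 and Sod3. In edgeR fits with the library as a block, 4 of the 9 genes tested differed between α- and β-cells at adjusted p under 0.05 (31.1% of all genes tested did), 3 of 9 between δ- and β-cells (20.6%), 7 of 9 between macrophages and β-cells (45.5%), 5 of 10 between endothelial and β-cells (54.6%) and 5 of 10 between mesenchymal and β-cells (32.8%). The shares in parentheses are those of all genes tested. The calls of Sod3 in endothelial and mesenchymal cells and of Gpx3 in endothelial cells are among these counts and were set by the low-count filter, as given below. The counts rest on the scaling: by total UMIs 7 of 9 differed for α-cells (49.9% of all genes), 7 of 9 for δ-cells (37.6%), 8 of 9 for macrophages (45%), 9 of 10 for endothelial cells (60.4%) and 9 of 10 for mesenchymal cells (36.6%).

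**Figure D1:**
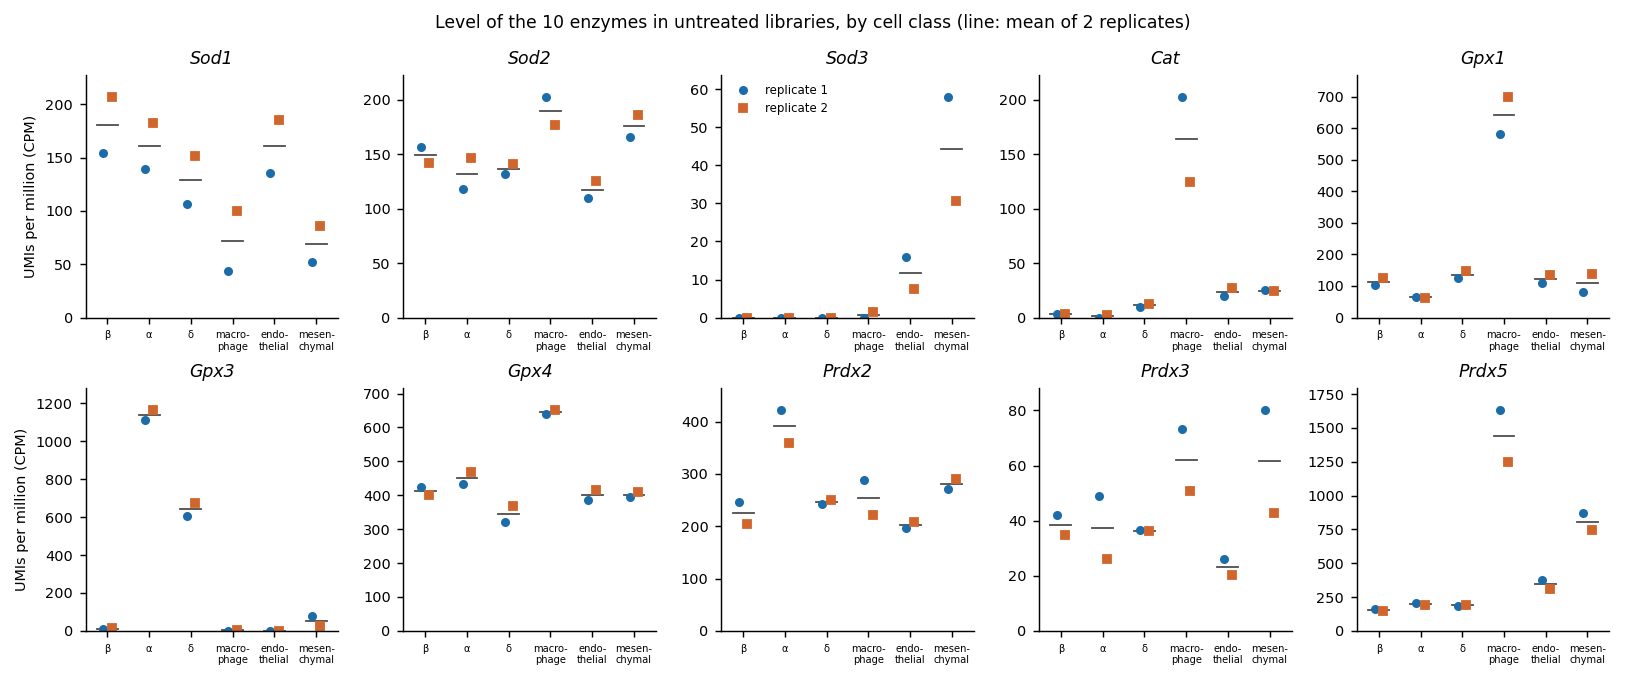
UMIs per 1000000 (CPM, scaled over all 48 sums) of each enzyme gene in the 2 untreated libraries, by cell class; circles are replicate 1, squares replicate 2 and lines the mean. Cat, Gpx1, Gpx4 and Prdx5 were highest in macrophages, Gpx3 in α- and δ-cells, and Sod3 in mesenchymal cells; each panel has its own axis from 0.

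Among the dismutases, Sod3, the secreted form, separated the classes most. It had 0 UMIs of 49437573 in untreated β-cells, which allows a level of up to 0.0607 CPM by total UMIs (3 counts, counting error only), and also 0 in α- and δ-cells. Endothelial cells had 18 Sod3 UMIs and mesenchymal cells 36. By total UMIs these were at least 250.3-fold and at least 851.5-fold higher than the limit for β-cells. Sod3 passed the low-count filter of these fits only through the sums where it was high, so its calls among the 5 of 10 were set by that filter and no p is given. Sod3 reached 15.8 and 7.50 CPM in the 2 untreated endothelial sums and 58.1 and 30.6 CPM in the mesenchymal ones. Sod1, the cytosolic form, was lower in macrophages (72.2 ± 39.8 CPM, n = 2) and mesenchymal cells (69.2 ± 23.5 CPM) than in β-cells (181 ± 37.6 CPM), by log2 differences of -1.17 ± 0.26 (SE; adjusted p = 2.05e-05) and -1.19 ± 0.34 (adjusted p = 0.0020). The difference in mesenchymal cells was -0.56 (adjusted p = 0.18) when the sums were scaled by total UMIs, and it was not called without untreated replicate 1 (adjusted p = 0.054) or with no library block (adjusted p = 0.065). With no library block the call in macrophages was lost too (-1.10, adjusted p = 0.069). In δ-cells Sod1 was at 129 ± 32.0 CPM, and its difference of -0.47 (adjusted p = 0.0435) turned to 0.17 under the same scaling. Sod2, the mitochondrial form, lay between 117 ± 11.3 CPM in endothelial cells and 190 ± 18.3 CPM in macrophages. By total UMIs the order was another, with β-cells lowest at 101.9 CPM and mesenchymal cells highest at 216.7 CPM. Its higher level in macrophages than in β-cells (149 ± 10.5 CPM; log2 difference 0.48, adjusted p = 0.0458) was kept in 2 of 14 alternatives.

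Catalase mRNA was scarce in the endocrine cells and abundant in macrophages. In untreated sums Cat was at 3.57 and 3.31 CPM in β-cells, 0 and 2.31 CPM in α-cells, 9.85 and 12.6 CPM in δ-cells, 20.2 and 26.8 CPM in endothelial cells, 24.9 and 24.5 CPM in mesenchymal cells and 203 and 124 CPM in macrophages. Every sum of the 3 non-endocrine classes lay above every β-cell sum. The log2 difference from β-cells was 5.68 ± 0.30 (SE) in macrophages (adjusted p = 1.55e-79), 3.04 ± 0.58 in mesenchymal cells (adjusted p = 1.65e-06), 2.73 ± 0.43 in endothelial cells (adjusted p = 1.14e-09) and 1.68 ± 0.52 in δ-cells (adjusted p = 0.0093). The difference in δ-cells was not called without untreated replicate 1 (1.94, adjusted p = 0.15) or without untreated replicate 2 (adjusted p = 0.21), nor by DESeq2 (1.77, adjusted p = 0.074).

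Of the glutathione peroxidases, Gpx3, the secreted form, was high in α- and δ-cells. It stood at 1110 and 1165 CPM in untreated α-cells and at 605 and 676 CPM in δ-cells, against 9.87 and 13.5 CPM in β-cells. The log2 difference from β-cells was 6.62 ± 1.28 (SE; adjusted p = 0.0215) in α-cells and 5.81 ± 1.08 (adjusted p = 0.0314) in δ-cells. The values did not overlap, but without untreated replicate 1 the adjusted p was 0.20 in α-cells and 0.29 in δ-cells, and without untreated replicate 2 it was 0.19 and 0.23. The calls were kept in 10 and 8 of 14 alternatives. In endothelial cells 1 Gpx3 UMI was counted of 1185093, and in macrophages 4 of 1074742, against 368 of 49437573 in β-cells. Gpx3 passed the low-count filter of the endothelial fit only through the β-cell sums. Its call there was thus set by that filter, and no p is given. In mesenchymal cells Gpx3 was at 80.2 and 24.5 CPM (log2 difference from β-cells 2.27 ± 0.42, adjusted p = 7.31e-07), and the difference was 0.86 (adjusted p = 0.42) without untreated replicate 1. In that library insulin took 4.26% of the mesenchymal UMIs, against 0.522% in untreated replicate 2, but at most 0.67% of its 29 Gpx3 UMIs were carried from β-cells by this measure. Glucagon RNA differed the same way between these 2 untreated sums. Gcg was at 3978 CPM in replicate 1 and 266 CPM in replicate 2 (by total UMIs). Over the other mesenchymal sums Gcg and Gpx3 did not always move together. Gpx3 was highest with NMMA alone in replicate 2 (94.9 CPM, Gcg 501 CPM). Gcg was highest with cytokines in replicate 2 (4903 CPM, Gpx3 36.9 CPM). The part of RNA from glucagon cells in the Gpx3 values was not tested. Gpx1, the common cytosolic form, was at 114 ± 14.9 CPM in β-cells, 641 ± 83.5 CPM in macrophages (log2 difference 2.62 ± 0.21, adjusted p = 2.71e-34) and 63.8 ± 3.88 CPM in α-cells (-0.84 ± 0.15, adjusted p = 5.43e-06). The difference in α-cells was -0.25 (adjusted p = 0.21) when scaled by total UMIs. Gpx4, which reduces lipid peroxides in membranes, ranged from 345 ± 32.4 CPM in δ-cells to 646 ± 8.10 CPM in macrophages (log2 difference from β-cells 0.78, adjusted p = 0.00022; 0.67 and adjusted p = 0.066 without untreated replicate 2). By total UMIs β-cells were lowest in Gpx4, at 280.2 CPM.

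The peroxiredoxins differed in another pattern. Prdx5, found in mitochondria, peroxisomes and cytosol, was lowest in β-cells. It was at 164 and 148 CPM in the untreated β-cell sums, 186 and 193 CPM in δ-cells, 209 and 192 CPM in α-cells, 377 and 312 CPM in endothelial cells, 868 and 748 CPM in mesenchymal cells and 1633 and 1245 CPM in macrophages. The β-, δ- and α-cell values lay close together on this scale, while each non-endocrine class lay above them. By total UMIs Prdx5 was at 106.6 CPM in β-cells, 203.4 CPM in α-cells and 206.3 CPM in δ-cells, still below the other classes. The log2 difference from β-cells was 3.33 ± 0.20 (SE) in macrophages (adjusted p = 5.45e-63), 2.57 ± 0.34 in mesenchymal cells (adjusted p = 7.18e-13), 1.11 ± 0.18 in endothelial cells (adjusted p = 3.53e-09) and 0.36 ± 0.13 in α-cells (adjusted p = 0.0272, kept in 7 of 14 alternatives). Prdx5 overlaps Trmt112 on the other strand, and the strand setting of the counting is not given in the sources used here, so reads of the 2 genes could not be told apart if strand was ignored. The same holds for Prdx2 beside Rnaseh2a and Junb, and for Sod1 beside Scaf4. Prdx2, a cytosolic form, was at 391 ± 44.8 CPM in α-cells and 225 ± 29.5 CPM in β-cells (log2 difference 0.79 ± 0.13, adjusted p = 4.24e-07). Prdx3, the mitochondrial form, was at 38.4 ± 5.16 CPM in β-cells, 62.2 ± 15.9 CPM in macrophages (0.80, adjusted p = 0.0151, kept in 7 of 14 alternatives) and 23.2 ± 3.94 CPM in endothelial cells (-0.77, adjusted p = 0.013, but 0.28 with adjusted p = 0.45 when scaled by total UMIs).

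Cytokines raised Sod2 in all 6 classes. From here CPM are scaled within each class, so they serve to compare conditions and not classes. In β-cells Sod2 was at 102 and 93.5 CPM untreated, 938 and 743 CPM with cytokines, 808 and 531 CPM with cytokines and NMMA, and 101 and 83.4 CPM with NMMA alone. All 4 sums with cytokines lay above all 4 without them. The log2 difference from untreated was 3.10 ± 0.23 (SE, adjusted p = 2.47e-05) with cytokines and 2.78 ± 0.23 (adjusted p = 5.13e-05) with cytokines and NMMA. In mesenchymal cells Sod2 went from 192 and 208 CPM to 2924 and 2221 CPM with cytokines (log2 difference 3.68 ± 0.39, adjusted p = 0.00062). In endothelial cells it went from 142 and 160 CPM to 961 and 1796 CPM (3.19 ± 0.29, adjusted p = 1.07e-06). In macrophages it went from 184 and 159 CPM to 646 and 927 CPM (2.20 ± 0.27, adjusted p = 0.00013). The sums with and without cytokines did not overlap in any of these classes.

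In α-cells Sod2 was lower with cytokines alone than with cytokines and NMMA, in cells that lay in different clusters, as given above. It was at 107 and 133 CPM untreated, 506 and 359 CPM with cytokines and 782 and 759 CPM with cytokines and NMMA. The log2 difference from untreated was 1.84 ± 0.22 (SE, adjusted p = 8.9e-06) with cytokines and 2.68 ± 0.22 (adjusted p = 9.24e-08) with cytokines and NMMA, and the difference between the 2 treatments was -0.84 ± 0.21 (adjusted p = 0.0139). That last call was lost without cytokines replicate 2 (-0.61, adjusted p = 0.095) or without either replicate of cytokines with NMMA (adjusted p = 0.071 and 0.055). In δ-cells Sod2 was at 145 and 157 CPM untreated, 627 and 320 CPM with cytokines and 630 and 725 CPM with cytokines and NMMA (log2 differences from untreated 1.64 ± 0.30, adjusted p = 0.0024, and 2.16 ± 0.29, adjusted p = 0.0001). The cytokine libraries held 12 and 11 δ-cells. The barcodes left out for β-cell markers, given above, came almost only from libraries without cytokines. Insulin transcripts in α-cells were higher with cytokines, and the part of this removal in that was not tested. If all insulin RNA there came from β-cells, up to 30.2% and 25.2% of the α-cell Sod2 UMIs and 8.19% and 22.3% of the δ-cell ones with cytokines were carried over, against at most 2.51% untreated. With this RNA subtracted the log2 difference from untreated was 1.54 in both α-cells (adjusted p = 0.00013) and δ-cells (adjusted p = 0.0060).

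**Figure D2:**
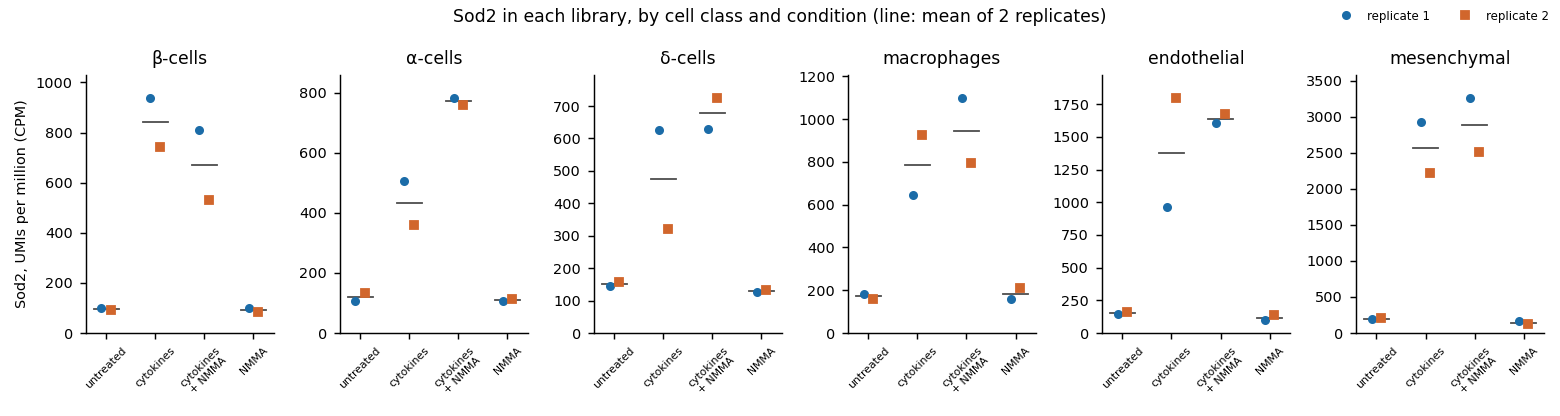
Sod2 in UMIs per 1000000 (CPM, scaled within each class) for each library, by condition; circles are replicate 1, squares replicate 2 and lines the mean, with a separate axis from 0 in each panel. In each class all 4 sums with cytokines lie above all 4 without, and in α-cells the sums with NMMA (782 and 759) lie above those with cytokines alone (506 and 359).

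Single β-cells with at least 9500 UMIs were compared after thinning to 9500. The shallower ones were left out: 57 of 1595 and 94 of 607 untreated, 28 of 1137 and 98 of 578 with cytokines. Sod2 was detected in 60.3% and 56.3% of untreated β-cells and in 94.5% and 90.4% with cytokines (exact binomial intervals 57.8 to 62.8%, 51.9 to 60.7%, 93 to 95.8% and 87.4 to 92.9%, counting error only). Without thinning or this depth limit the shares were 83.6%, 76.6%, 97.6% and 89.6%. The median β-cell had 1 Sod2 UMI in both untreated libraries and 6 and 5 with cytokines. The variance across cells divided by the mean was 1.14 and 1.38 untreated and 4.85 and 4.44 with cytokines, so the level varied more between cells than counting alone gives.

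Other enzymes changed in fewer classes. In the fit without a replicate block, 5 of the 9 genes tested in β-cells rose with cytokines (Sod2, Gpx1, Cat, Prdx5 and Gpx4) and none fell. Of all genes tested 45.8% changed in either direction. With the replicate block, given below, 8 of 9 were called (62.6% of all genes), and Prdx3 was lower (-0.35). The median log2 difference of the 9 was 0.77, and that of all genes tested was 0.0028. In α-cells 2 of 8 rose (23% of all genes changed), in δ-cells 2 of 8 rose and 1 fell (6.27%), in macrophages 1 of 8 rose (4.54%), in endothelial cells 3 of 9 rose (6.36%) and in mesenchymal cells 1 of 10 rose (1.84%). With cytokines and NMMA the counts that rose against untreated were 3 of 9 in β-cells (22.4% of all genes changed), 3 of 8 in α-cells (8.32%), 3 of 8 in δ-cells (6.97%), 2 of 8 in macrophages (6.4%), 3 of 9 in endothelial cells (6.64%) and 1 of 10 in mesenchymal cells (1.98%), and none fell.

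**Figure D3:**
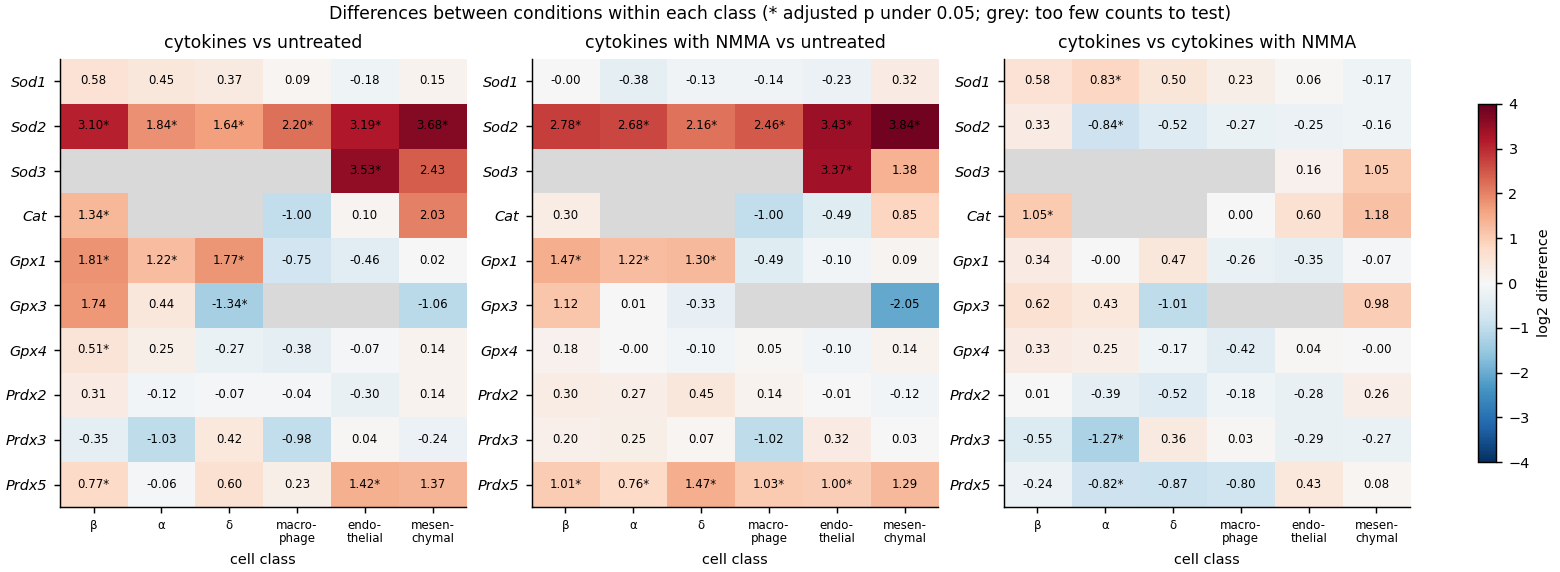
Log2 differences of the 10 genes within each cell class for 3 comparisons of conditions, coloured from blue (lower) to red (higher) on a scale of log2 difference from -4 to 4, with * where adjusted p was under 0.05 and grey where counts were too few to test. In both comparisons with untreated Sod2 is marked in all 6 classes and Gpx1 in β-, α- and δ-cells, while Cat in β-cells is marked with cytokines against untreated and against cytokines with NMMA.

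Gpx1 rose in the 3 endocrine classes. In β-cells it was at 67.3 and 82.1 CPM untreated, 274 and 249 CPM with cytokines and 214 and 200 CPM with cytokines and NMMA (log2 differences 1.81 ± 0.15 and 1.47 ± 0.15, adjusted p = 4.32e-05 and 0.00019). With NMMA alone it was at 93.5 and 106 CPM, above both untreated sums. In α-cells Gpx1 was at 60.4 and 55.5 CPM untreated and 104 and 162 CPM with cytokines (1.22 ± 0.22, adjusted p = 0.00068). In δ-cells it was at 137 and 165 CPM untreated and 597 and 432 CPM with cytokines (1.77 ± 0.26, adjusted p = 0.00043). The groups did not overlap in these classes. By insulin RNA, however, up to 42.9% and 18.6% of the α-cell Gpx1 UMIs with cytokines may have been carried from β-cells, against 1.77% and 2.31% untreated. Taking these off leaves at least 59.4 and 132 CPM with cytokines beside 59.4 and 54.3 CPM untreated, so replicate 1 was then at the untreated level. The fit on the subtracted sums gave 0.94 (adjusted p = 0.0241). With cytokines and NMMA, δ-cell Gpx1 was at 329 and 413 CPM (adjusted p = 0.0034), a call lost without untreated replicate 1 (adjusted p = 0.10) or without replicate 2 of cytokines with NMMA (adjusted p = 0.066). In macrophages Gpx1 was at 528 and 631 CPM untreated and 251 and 439 CPM with cytokines, with adjusted p = 0.168. With a replicate block this difference of -0.78 was called (adjusted p = 0.0225; 8.88% of all genes were).

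Cat rose in β-cells with cytokines, and with cytokines and NMMA it was not called (log2 difference from untreated 0.30). It was at 2.33 and 2.19 CPM untreated, 5.80 and 5.69 CPM with cytokines, 2.44 and 3.17 CPM with cytokines and NMMA, and 2.52 and 3.36 CPM with NMMA alone. The 2 cytokine sums lay above all 6 others. The log2 difference from untreated was 1.34 ± 0.23 (SE, adjusted p = 0.0017) and that between cytokines and cytokines with NMMA was 1.05 ± 0.23 (adjusted p = 0.0171). The latter was not called without replicate 1 of cytokines (1.03, adjusted p = 0.081) or of cytokines with NMMA (0.86, adjusted p = 0.11). After thinning, Cat was found in 2.93% and 2.92% of untreated β-cells and in 5.68% and 4.58% with cytokines. Mesenchymal Cat was at 28.8 and 27.5 CPM untreated and 131 and 103 CPM with cytokines, with no overlap (log2 difference 2.03, adjusted p = 0.0576; the replicate block gave 0.0226 and called 3.14% of all genes). Macrophage Cat was at 184 and 112 CPM untreated and 53.6 and 93.8 CPM with cytokines, and the groups did not overlap, but the difference was not called (adjusted p = 0.172).

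Prdx5 rose with cytokines in β-cells, from 107 and 97.6 CPM to 178 and 169 CPM (log2 difference 0.77 ± 0.14, adjusted p = 0.0021), and to 224 and 188 CPM with NMMA added (1.01 ± 0.14, adjusted p = 0.00094). In α-cells it was at 189 and 175 CPM untreated, 175 and 174 CPM with cytokines and 298 and 316 CPM with cytokines and NMMA. The α-cell value with cytokines alone was thus at the untreated level (-0.06, adjusted p = 0.855), and cytokines were lower than cytokines with NMMA (-0.82 ± 0.19, adjusted p = 0.0089). This call was lost without replicate 2 of cytokines with NMMA (-0.80, adjusted p = 0.062). In δ-cells Prdx5 was at 204 and 216 CPM untreated, 287 and 348 CPM with cytokines and 579 and 583 CPM with cytokines and NMMA. The last of these differed from untreated (1.47 ± 0.23, adjusted p = 0.00052). The difference between the 2 treatments in δ-cells was -0.87 (adjusted p = 0.119), which the replicate block brought to 0.0082 (3.37% of all genes called). In macrophages Prdx5 was at 1484 and 1123 CPM untreated, 1244 and 1810 CPM with cytokines and 2907 and 2420 CPM with cytokines and NMMA, and only the last differed from untreated (1.03 ± 0.24, adjusted p = 0.0144). That call was lost without untreated replicate 2 (0.87, adjusted p = 0.16) or without replicate 1 of cytokines with NMMA (0.95, adjusted p = 0.099). Endothelial Prdx5 was at 490 and 399 CPM untreated and 951 and 1425 CPM with cytokines (1.42 ± 0.25, adjusted p = 0.0013), and at 818 and 953 CPM with cytokines and NMMA (adjusted p = 0.0202, kept in 10 of 14 alternatives). Mesenchymal Prdx5 was at 1005 and 838 CPM untreated and 2745 and 2031 CPM with cytokines, without overlap (1.37, adjusted p = 0.111; the replicate block gave 0.0146).

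**Figure D4:**
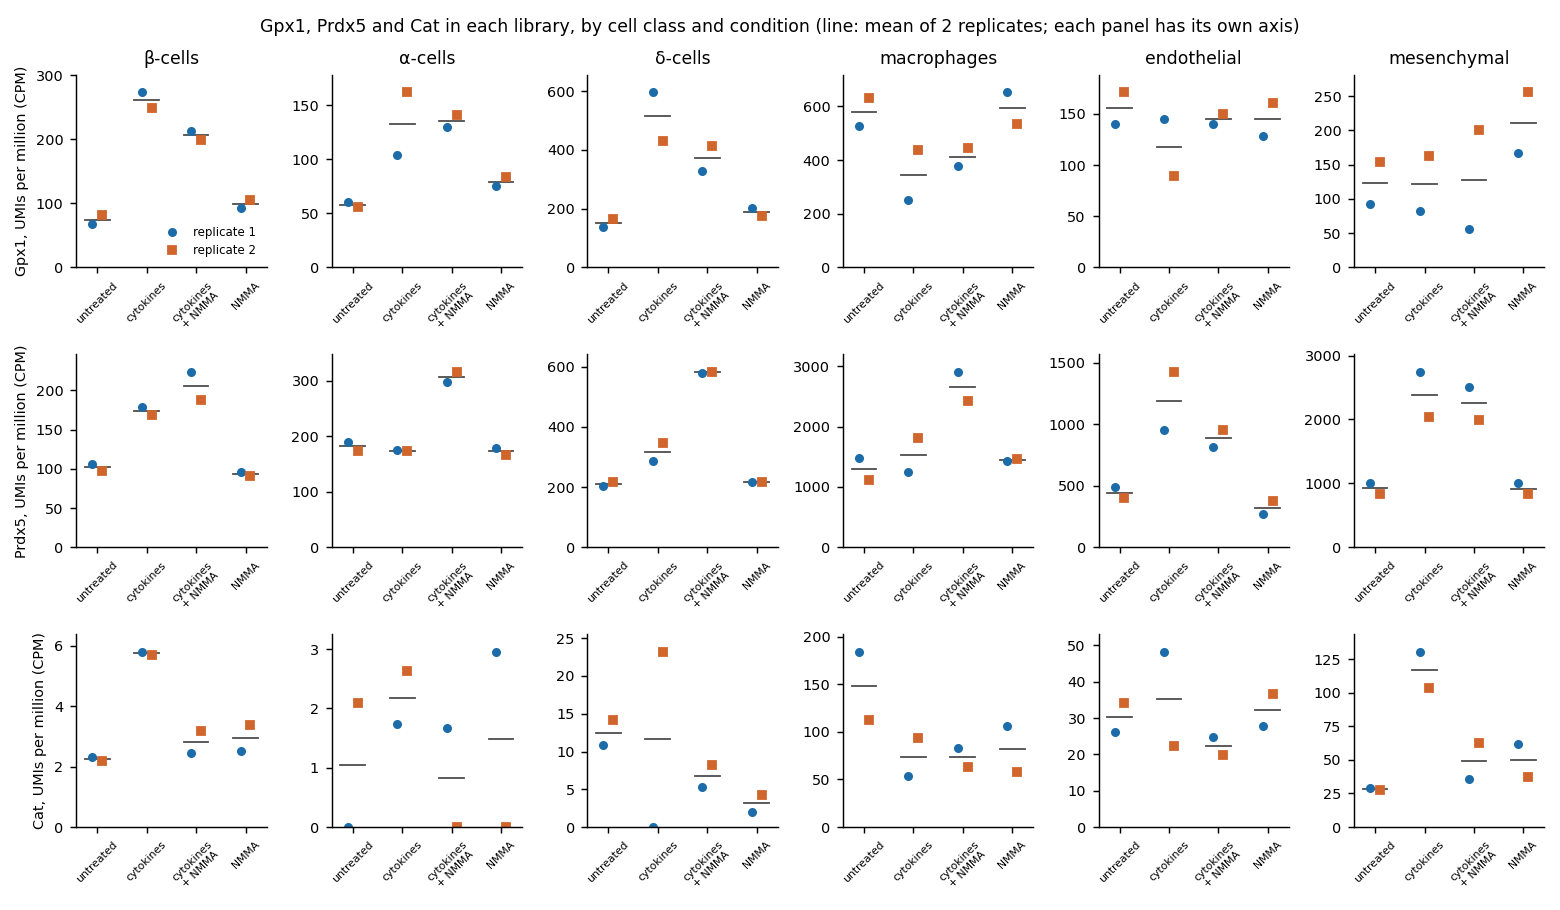
Gpx1, Prdx5 and Cat in UMIs per 1000000 (CPM, scaled within each class) for each library, by class and condition; circles are replicate 1, squares replicate 2 and lines the mean, and each panel has its own axis from 0. In β-cells both cytokine sums of Cat (5.80 and 5.69) lie above the other 6, and in α-cells Prdx5 is higher with cytokines and NMMA (298 and 316) than with cytokines alone (175 and 174).

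Sod3 rose in endothelial cells. It was at 20.6 and 9.59 CPM untreated, 126 and 207 CPM with cytokines, 214 and 106 CPM with cytokines and NMMA and 14.0 and 35.0 CPM with NMMA alone. The sums with cytokines did not overlap those without (log2 difference 3.53 ± 0.52, adjusted p = 0.00099). Sod3 was highest in mesenchymal cells at baseline, and 6 of the 7 mesenchymal markers were detected in endothelial cells, with Rgs5 the most abundant and Pdgfra at 0. Their summed level was 1160 and 503 CPM untreated and 354 and 282 CPM with cytokines, and their part in the Sod3 values was not tested. In mesenchymal cells Sod3 was at 67.2 and 34.4 CPM untreated and 227 and 310 CPM with cytokines, without overlap, but the difference was not called (2.43 ± 0.66, adjusted p = 0.154). Gpx3 fell in δ-cells, from 664 and 757 CPM to 346 and 218 CPM (-1.34 ± 0.29, adjusted p = 0.0089), and the call was lost without replicate 2 of untreated (-1.26, adjusted p = 0.074) or of cytokines (-1.01, adjusted p = 0.064). The markers of δ-cells themselves were also lower in these sums, as were those of α- and PP-cells, and insulin was higher. The 5 δ-cell markers went from 83700 and 63700 CPM to 37400 and 28000 CPM. The 7 α-cell markers went from 2910 and 30300 CPM to 1530 and 7950 CPM, and the 3 PP-cell markers from 87100 and 133000 CPM to 45800 and 26000 CPM. Insulin transcripts went from 0.842% and 1.43% of the δ-cell UMIs to 2.26% and 4.3%. The part of RNA from these other cells in the δ-cell Gpx3 values was not tested. In β-cells Gpx3 was at 6.43 and 8.94 CPM untreated and 6.38 and 45.1 CPM with cytokines (adjusted p = 0.358). The replicate with the higher value also held more glucagon RNA. By total UMIs Gcg was at 333 CPM in replicate 1 and 3919 CPM in replicate 2 of cytokine-treated β-cells, against 237 and 368 CPM untreated. The 7 α-cell markers together were at 414 and 4070 CPM, and their part in the Gpx3 value was not tested.

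Gpx4 rose modestly in β-cells, from 276 and 265 CPM to 416 and 353 CPM (0.51 ± 0.13, adjusted p = 0.0143), but this call was lost without untreated replicate 1, untreated replicate 2 or cytokines replicate 1 (adjusted p = 0.063, 0.078 and 0.10), and scaling by total UMIs gave 0.30 (adjusted p = 0.11). Prdx2, Prdx3 and Sod1 were called in no class with cytokines against untreated. In β-cells Prdx2 was at 160 and 135 CPM untreated and 210 and 157 CPM with cytokines, Prdx3 at 27.4 and 23.0 CPM and then 22.4 and 17.1 CPM, and Sod1 at 100.4 and 137 CPM and then 144 and 211 CPM. Each moved the same way in both replicates. With a replicate block, Sod1 (0.57, adjusted p = 3.5e-05), Prdx2 (0.30, adjusted p = 0.0078) and Prdx3 (-0.35, adjusted p = 0.0092) were also called in β-cells, which made 8 of 9 (62.6% of all genes were called under the block). In α-cells the block added Gpx3 (0.43, adjusted p = 0.0170), Sod1 (0.44, adjusted p = 0.0369) and Prdx3 (-0.93, adjusted p = 0.0200), which made 5 of 8 (30.7% of all genes).

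The comparison of cytokines with cytokines and NMMA asks which levels depended on nitric oxide synthesis. In β-cells 1 of 9 was called (Cat; 19.2% of all genes tested were), and with a replicate block 7 of 9 were (40.5% of all genes): Cat, Sod1 (0.59), Gpx1 (0.34), Sod2 (0.34) and Gpx4 (0.33) higher and Prdx3 (-0.55) and Prdx5 (-0.24) lower with cytokines alone. In α-cells 4 of 8 were called (11.3% of all genes): Sod2 and Prdx5, given above, Prdx3 lower (-1.27 ± 0.39, adjusted p = 0.0473) and Sod1 higher (0.83 ± 0.24, adjusted p = 0.0312) with cytokines alone. Prdx3 was at 17.3 and 15.8 CPM against 50.4 and 28.9 CPM with NMMA, and Sod1 at 165 and 233 CPM against 89.7 and 136 CPM. The calls of Prdx3 and Sod1 held in 8 of 14 alternatives each. These α-cells lay in the cluster led by heat shock genes with cytokines alone and in that led by Trf with NMMA, and the β-cells of replicate 1 were split likewise between the clusters led by Il4i1 and Lcn2, so the treatments and the clusters cannot be told apart there. None was called in δ-cells (0.498% of all genes tested), macrophages (0.116%), endothelial (0%) or mesenchymal cells (0%). With a replicate block 2 of 8 were called in δ-cells (3.37% of all genes), both lower with cytokines alone: Gpx3 (-1.01, adjusted p = 0.0048) and Prdx5, given above. At unadjusted p under 0.05 all genes called numbered 365 in endothelial and 166 in mesenchymal cells, and DESeq2 called 3 and 0.

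NMMA alone against untreated gave no call in any class by edgeR (0% of all genes in each). At unadjusted p under 0.05 there were 930 genes in β-cells, 344 in α-cells and 170 in δ-cells, with 144 in macrophages, 149 in endothelial and 69 in mesenchymal cells, and DESeq2 called 9 in β-cells and 0 elsewhere. With a replicate block Gpx1 in β-cells was called (0.42, adjusted p = 0.0434), 1 of 9 there (3.28% of all genes).

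Whether cytokine responses differed between classes was tested as an interaction. The Sod2 response was smaller than in β-cells in α-cells (log2 difference -1.21 ± 0.20, adjusted p = 1.73e-05), δ-cells (-1.53 ± 0.27, adjusted p = 7.51e-06) and macrophages (-0.94 ± 0.28, adjusted p = 0.0202, kept in 6 of 14 alternatives). Without cytokines replicate 1 the macrophage difference was -0.50. Gpx1, which rose in endocrine cells, differed in macrophages (-2.62 ± 0.29, adjusted p = 2.14e-16), endothelial cells (-2.13 ± 0.30, adjusted p = 3.73e-10) and mesenchymal cells (-1.70 ± 0.48, adjusted p = 0.0269, kept in 8 of 14). Cat differed in macrophages (-2.40 ± 0.41, adjusted p = 6.32e-07), and Gpx4 too (-0.90, adjusted p = 0.0235, kept in 6 of 14). The Prdx5 response was smaller in α-cells (-0.77 ± 0.19, adjusted p = 0.0063), where Prdx5 itself was not called, and this difference was lost without untreated replicate 2 (-0.75, adjusted p = 0.10). The Prdx5 response was larger in endothelial cells (0.78 ± 0.25, adjusted p = 0.0343, kept in 8 of 14), by 0.45 without cytokines replicate 2. Gpx3 differed in mesenchymal cells (-2.85 ± 0.68, adjusted p = 0.0033), not without untreated replicate 1 (-1.58, adjusted p = 0.92). No other response of the 10 genes was called as different. Of all genes tested, 4.89% differed for α-cells, 2.77% for δ-cells, 5.95% in macrophages, 6.3% in endothelial and 1.55% in mesenchymal cells.

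Within cytokine-treated β-cells, those with detected Nos2 mRNA had more Sod2. β-cells with at least 9500 UMIs were thinned to 9500 and split by whether they held a Nos2 UMI. The shallower cells were left out: 28 of 1137 and 98 of 578 with cytokines, 20 of 645 and 86 of 452 with NMMA added. Of the β-cells kept, 45.8% and 43.3% held a Nos2 UMI with cytokines, 66.9% and 58.5% with cytokines and NMMA, and none without cytokines. Sod2 was at 1099 and 598 CPM in cells with and without Nos2 in cytokines replicate 1, and at 983 and 449 CPM in replicate 2. With NMMA the values were 880 and 485 CPM in replicate 1 and 631 and 329 CPM in replicate 2. All 4 libraries had more Sod2 in the cells with Nos2 (log2 difference 0.95 ± 0.09, adjusted p = 1.8e-10). Prdx5 was also higher in all 4, by 0.30 ± 0.08 (adjusted p = 0.0104). Both were called among 9688 genes of which 7.59% differed, and Prdx5 was kept in 5 of 9 alternatives. Gpx1, Cat, Sod1, Gpx3, Gpx4, Prdx2 and Prdx3 were not called.

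**Figure D5:**
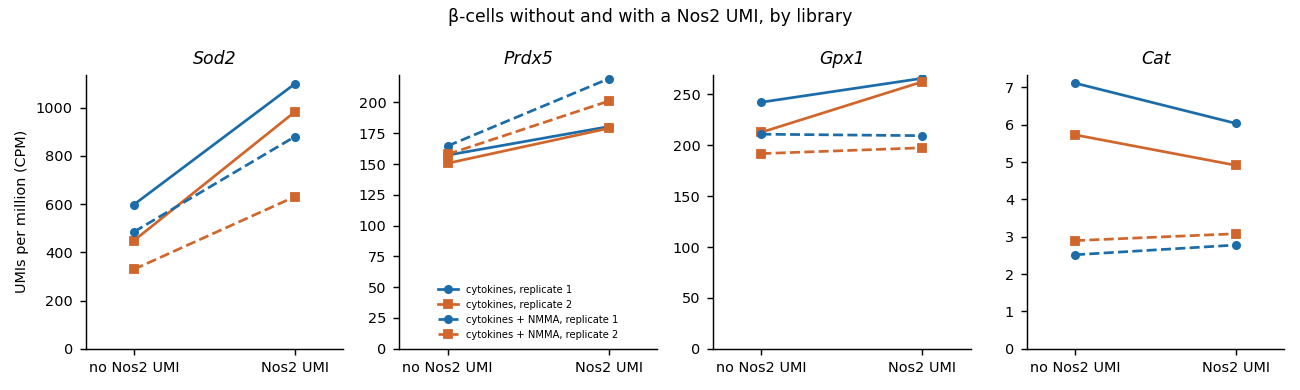
UMIs per 1000000 (CPM) of Sod2, Prdx5, Gpx1 and Cat in β-cells without and with a Nos2 UMI, after thinning to 9500 UMIs per cell; each line joins the 2 values of a library (solid with cytokines, dashed with cytokines and NMMA; blue replicate 1, orange replicate 2). Sod2 rises from left to right in all 4 libraries, for example from 598 to 1099.

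The genes that supply these enzymes were looked at as lists. Of 15 genes of thioredoxin and glutathione supply, 9 rose and 1 fell with cytokines in β-cells, where 45.8% of all genes changed, with a median log2 difference of 0.39 (0.0028 for all genes). The risers with the smallest p were Txnip, an inhibitor of thioredoxin (0.99), Gclm, a subunit of the enzyme that starts glutathione synthesis (1.11), Srxn1, which repairs overoxidized peroxiredoxins (1.05), and Gsr, glutathione reductase (1.23). In the other classes 1 of 15 rose in α-cells (23% of all genes changed), 3 of 14 in δ-cells (6.27%), 1 of 13 in macrophages (4.54%), 1 of 12 with 1 fall in endothelial cells (6.36%) and 1 of 14 in mesenchymal cells (1.84%). Txn1, thioredoxin itself, was at 135 and 121 CPM in untreated β-cells, 135 and 133 CPM with cytokines and 380 and 285 CPM with cytokines and NMMA. Of 6 other family members in β-cells, against the same 45.8%, 2 rose: Prdx6 and Ccs, the copper chaperone of SOD1. Prdx6 went from 122 and 104 CPM to 173 and 153 CPM and was at 96.5 and 81.7 CPM with NMMA added. In macrophages 1 of 4 rose (4.54% of all genes changed), Prdx1, from 7097 and 3517 CPM to 15855 and 13752 CPM. In δ-cells 1 of 5 rose (6.27%) and in endothelial cells 1 of 5 fell (6.36%). None of 5 was called in α-cells (23%) and none of 6 in mesenchymal cells (1.84%). Of 6 selenoprotein synthesis genes 1 rose, Trnau1ap, and 1 fell, Sepsecs, in β-cells, where 45.8% of all genes changed. Gpx1, Gpx3 and Gpx4 are selenoproteins. Among the superoxide and nitric oxide producers 3 of 4 tested rose in β-cells (Nos2, Rac1 and Cyba), again beside 45.8% of all genes. Nos2 had 1 and 0 UMIs in the untreated β-cell sums and 5047 and 2412 with cytokines. It passed the low-count filter only through the sums with cytokines, so its place among the 3 was set by that filter. At baseline 8 of 9 producers were higher in macrophages than in β-cells, where 45.5% of all genes differed in either direction, among them Cybb of the phagocyte oxidase. Only 4 of the 10 listed producers had enough counts to be tested within β-cells. The others entered this comparison through the macrophage sums where they were high, so their direction was set by the low-count filter.

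Genes whose level followed an enzyme most closely over the 48 sums were named by Pearson r of log2(CPM + 1), among 8718 genes. The sums share libraries and classes, so r is a description. For Sod2 these were F830016B08Rik (0.94), Cxcl10 (0.93) and Gbp5 (0.93), for Sod3 Rarres2 (0.97) and Gja4 (0.97), and for Gpx3 Tmem59l (0.94), Gc (0.93) and Gata6 (0.92).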

How the data were processed

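Single-cell 3′ RNA-seq was made from 8 libraries, and the authors deposited UMI counts per gene and barcode from Cell Ranger (build mm10 per the submitters' processing notes; version not given there). Counts came on 31053 genes in replicate 1 and 32285 in replicate 2, and 30406 shared by identifier were used. Barcodes with at least 200 genes, at most 5500 (replicate 1) or 6500 (replicate 2) genes and at most 10% mitochondrial UMIs were kept. Cells were clustered with scanpy 1.11.5 without the 10 enzyme genes (30 principal components, 2000 variable genes) and named by markers; 200 doublets (1.84%) were kept in the main fits. UMIs were summed per library and class (153690 to 33994908 per sum; at least 10 cells) and tested with edgeR 4.0.16 (R 4.3.3; quasi-likelihood, TMM, Benjamini-Hochberg over all genes, threshold 0.05), with library as a block between classes. Same-numbered libraries came from the same islet pool, and deviations of their β-cell sums correlated at r = 0.66 to 0.75 over 6 pairs, so the replicate block was also fitted. DESeq2 1.42.0, other scalings, filters, doublet removal, subtraction of β-cell RNA and leaving out each library were tried. Scripts were tested on simulated data. Against a group at or under 3 UMIs a fold is given only as a bound, computed from total UMIs. The members and gene lists were chosen with earlier results of these data known; the rule was to name all 10 members in every comparison, and the text gives values for part of them and counts for the rest. List genes were named by smallest p. No per-sample columns were left unused (0). Some named items are not reported here.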

Additional observations from a re-analysis of the deposited data

Results flagged for a closer look

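Each of these differences in cytokine response was itself tested (log2, other class minus β-cells, cytokines against untreated, edgeR interaction with the library as a block). For Sod2 it was -1.21 in α-cells, -1.53 in δ-cells and -0.94 in macrophages. For Gpx1 it was -2.62 in macrophages, -2.13 in endothelial and -1.70 in mesenchymal cells. For Prdx5 it was -0.77 in α-cells and 0.78 in endothelial cells. For Cat it was -2.40 and for Gpx4 -0.90, both in macrophages, and for Gpx3 -2.85 in mesenchymal cells. Without cytokines replicate 1 the Sod2 difference in macrophages was -0.50. Without cytokines replicate 2 the Prdx5 difference in endothelial cells was 0.45, and without untreated replicate 1 the Gpx3 difference was -1.58.

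Sod2 was also higher with cytokines in some, not all, of the cells that no comparison used (CPM by total UMIs). In acinar-like cells it was at 222 CPM in cytokines replicate 1 (31 UMIs in 18 cells) against 38.9 untreated. In the barcodes that stayed unnamed it was at 533 CPM in cytokines replicate 2 (146 UMIs in 259 barcodes) against 102 untreated, and at 70.7 against 75.1 in replicate 1. Ductal-like cells were at 177 CPM with cytokines and NMMA in replicate 1 (23 UMIs in 13 cells) against 188 untreated (38 UMIs in 28 cells), while with cytokines alone 67 UMIs were counted in 7 cells, fewer than the 10 needed for a level. These differences were not tested.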

How the results depend on the processing

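Of 72 called differences 38 were kept under every alternative tried for them, 24 of 35 of those within a class, Sod2 in all 6 classes against untreated among them. The counts of enzyme genes called that moved by more than 1.5 times are named by class and comparison, with the share of all genes called under the same setting in parentheses unless given above. The replicate block changed β-cells with cytokines from 5 to 8, with cytokines against cytokines and NMMA from 1 to 7 and with NMMA alone from 0 to 1, α-cells with cytokines from 2 to 5, δ-cells with cytokines against cytokines and NMMA from 0 to 2, macrophages with cytokines from 1 to 2, and mesenchymal cells with cytokines from 1 to 3 and with cytokines and NMMA from 1 to 2 (3.04%); it added Prdx2 in β-cells and Cat in macrophages with cytokines and NMMA, and Gpx3 in α-cells between the 2 cytokine treatments, and ended no call. Scaling by total UMIs gave 3 for β-cells between the 2 cytokine treatments (21.1%), 5 for α-cells with cytokines (35%), 7 for α-, 7 for δ-, 9 for endothelial and 9 for mesenchymal cells against untreated β-cells, and 5 for the response of α-cells (11.2%) and 2 for that of macrophages (4.67%). It moved the median log2 difference of all genes from -0.03 to 0.55 in α-cells, from -0.04 to 0.61 in δ-cells and from -0.29 to 0.74 in endothelial cells against β-cells. Under it Sod1 in δ-cells was 0.17 and Prdx3 in endothelial cells 0.28. DESeq2 gave 2 for α-cells between the 2 cytokine treatments (5.46%), 3 for mesenchymal cells with cytokines (2.3%), 1 for untreated δ-cells (11.6%), responses of 2 in macrophages (1.9%), 1 in endothelial (2.65%) and 0 in mesenchymal cells (1.35%), and 1 for the Nos2 split (2.63%). Without the low-count filter the counts were 4 in β-cells between the cytokine treatments (15.3%) and 1 with NMMA alone (0.6%), 2 in δ-cells between the treatments (2.24%), 3 in mesenchymal cells with cytokines (1.88%) and 1 for the mesenchymal response (0.874%). Without doublets there were 2 for mesenchymal cells with cytokines (1.89%) and 2 for the macrophage response (4.57%). Subtracting β-cell RNA gave responses of 2 in δ-cells (3.57%), 2 in macrophages (4.15%) and 1 in endothelial cells (6.33%). With no library block, untreated macrophages gave 4 (48.1%) and mesenchymal cells 3 (37.5%), the responses 0 for α-cells (0.958%), 0 for δ-cells (0.24%), 2 for macrophages (3.72%), 1 for endothelial (3.58%) and 0 for mesenchymal cells (0.816%), and the split 1 (1.83%). The cause of these changes was not tested. Leaving out each library gave ranges of 0 to 1 in β-cells, 1 to 4 in α-cells and 0 to 2 in δ-cells between the cytokine treatments; 1 to 2 in macrophages with cytokines and with NMMA added; 1 to 3 in mesenchymal cells with cytokines; 2 to 4, 0 to 3, 4 to 7 and 3 to 5 for untreated α-, δ-cells, macrophages and mesenchymal cells; 1 to 3, 1 to 2, 2 to 4, 1 to 2 and 0 to 2 for the 5 responses in the order above; and 1 to 2 for the split. Where that left a group with 1 library, its spread was taken from the other groups. The share of cells with Sod2 in each class and library was also taken without thinning and without doublets. In 33 of these comparisons it lay outside the exact binomial interval, and in 63 within it. The smallest sums limit what could be detected: 153690 UMIs in mesenchymal cells and 155379 in δ-cells, which numbered 11 and 12 with cytokines.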

Other observations

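Prdx1 and related genes differed between the replicates of mesenchymal cells given cytokines and NMMA. Prdx1, a cytosolic peroxiredoxin, was at 1472 and 1079 CPM untreated, 8193 and 7817 CPM with cytokines, and 1346 CPM in replicate 1 and 9313 CPM in replicate 2 with cytokines and NMMA. Prdx6 showed the same order, with 122 CPM in replicate 1 and 1064 CPM in replicate 2 of cytokines with NMMA, against 1617 and 1186 CPM with cytokines. These libraries held 16 and 22 mesenchymal cells. The genes were picked after their values were seen.

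Cyba, a subunit of the superoxide-producing oxidases, was at 9.73 and 5.31 CPM in untreated δ-cells, 179 and 172 CPM with cytokines and 341 and 360 CPM with cytokines and NMMA.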
